A study of Homo sapiens with 6 samples.

Results

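ANKRD1, CPA4, UCA1 and SNAPC1 are 4 genes described as targets of the transcriptional coactivator YAP and its DNA-binding partners, the TEAD factors. They were taken by gene symbol from the table of differentially expressed genes that accompanies the RNA-seq of LATS1/2-knockout endometrial carcinoma cells, and make up 4 of its 414 genes. RNA was sequenced from the human line KLE, established from an endometrial carcinoma, in 3 libraries of parental cells (wild-type genotype) and 3 libraries of LATS1/2-KO cells (double knockout of LATS1 and LATS2). No treatment is given for either group, and KLE cells were kept in DMEM with fetal bovine serum. The knockout cells were made with CRISPR/Cas9 and grown up from single cells, so they are clonal, and it is not given whether the 3 LATS1/2-KO libraries come from one clone or from several. It is also not given whether the libraries of a group come from separate cultures, so the p-values below measure the spread between these libraries, which may be technical. The columns of the LATS1/2-KO libraries carry the numbers 5, 6 and 7, and are named by them here.

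LATS1 and LATS2 are the last kinases of the Hippo pathway. They phosphorylate YAP and its relative TAZ, which are then held in the cytoplasm and degraded. Without that phosphorylation YAP and TAZ enter the nucleus, bind TEAD factors at DNA that carries the short sequence CATTCC, and switch on genes of growth, adhesion and the cytoskeleton, often together with AP-1 factors. In epithelial tissues such as the endometrium the pathway restrains growth, and the RNA levels of its targets are widely used to read YAP activity. Of the 4 genes, ANKRD1 encodes an ankyrin-repeat cofactor that is among the most used readouts of YAP. CPA4 encodes a secreted zinc carboxypeptidase, which trims amino acids from the C-terminal ends of peptides. UCA1 is a long non-coding RNA first known from bladder cancer. SNAPC1 encodes a subunit of the complex that starts transcription of small nuclear RNA genes.

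The promoters of 3 of the 4 genes were found in RefSeq sequences of the GRCh38.p14 build, and are shown because CATTCC is the sequence through which TEAD factors bind. Each runs from 250 bases before to 50 bases after the start of transcription and reads 5′ to 3′ along the gene. Capitals mark matches to CATTCC, which on the strand shown all read as its reverse complement. They also mark matches to the AP-1 motif TGANTCA. Each motif was searched on both strands, and no matches of one overlapped those of the other. These motifs were chosen after the promoters had been read. UCA1 had no entry.

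ANKRD1, chr10:90921038-90921337, minus strand: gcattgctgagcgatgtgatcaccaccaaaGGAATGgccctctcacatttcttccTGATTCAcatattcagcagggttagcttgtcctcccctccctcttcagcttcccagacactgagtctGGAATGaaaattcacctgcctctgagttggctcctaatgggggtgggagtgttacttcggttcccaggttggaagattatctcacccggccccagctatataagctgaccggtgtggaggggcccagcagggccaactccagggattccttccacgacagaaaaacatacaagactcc

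CPA4, chr7:130292911-130293210, plus strand: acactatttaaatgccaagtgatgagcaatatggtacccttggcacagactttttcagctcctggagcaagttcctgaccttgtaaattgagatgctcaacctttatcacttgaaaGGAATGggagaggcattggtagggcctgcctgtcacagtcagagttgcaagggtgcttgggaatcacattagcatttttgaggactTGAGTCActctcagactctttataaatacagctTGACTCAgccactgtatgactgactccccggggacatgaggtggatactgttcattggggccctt

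SNAPC1, chr14:61762170-61762469, plus strand: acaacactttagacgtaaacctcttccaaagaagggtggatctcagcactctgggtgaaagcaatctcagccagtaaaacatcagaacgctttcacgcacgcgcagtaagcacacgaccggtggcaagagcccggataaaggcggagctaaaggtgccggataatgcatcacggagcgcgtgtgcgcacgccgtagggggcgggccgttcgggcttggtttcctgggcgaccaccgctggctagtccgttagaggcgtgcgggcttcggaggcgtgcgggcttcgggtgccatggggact

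The ANKRD1 promoter held 2 matches to CATTCC, which begin 220 and 128 bases before the start, and 1 match to TGANTCA, which begins 195 bases before it. The CPA4 promoter held 1 match to CATTCC, at 134 bases before the start, and 2 matches to TGANTCA, at 48 and 15 bases before it. The SNAPC1 promoter held 0 matches to either, which says nothing of sites outside these 300 bases. CATTCC occurred in 14.0% of all 35116 promoter windows of this length (genes with several starts have several windows), in 14.3% of the 470 windows of genes in the table, and in 9 of 18 windows of a common YAP/TAZ target signature described further below, of whose 22 genes 16 had a window. TGANTCA occurred in 7.71% of all windows in 10.9% of those of genes in the table, and in 2 of the 18 signature windows. A match describes the sequence and does not show that a factor binds there.

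By GENCODE version 29 on GRCh38, ANKRD1 (ENSG00000148677.6_3) lies on chromosome 10 from 90912096 to 90921276 on the minus strand, with 1 annotated transcript of 1979 bases. CPA4 (ENSG00000128510.12_6) lies on chromosome 7 from 130293134 to 130324180 on the plus strand, with 12 transcripts. UCA1 (ENSG00000214049.8_7), annotated as a lincRNA, lies on chromosome 19 from 15828206 to 15836326 on the plus strand, with 36 transcripts. SNAPC1 (ENSG00000023608.5_5) lies on chromosome 14 from 61762357 to 61796428 on the plus strand, with 1 transcript of 2656 bases. UCA1 overlaps LINC01764 on the opposite strand and a small RNA gene on its own strand, and SNAPC1 overlaps AL137129.1 on its own strand. Whether the counting used the strand is not given, so counts of UCA1 and SNAPC1 could hold reads of these neighbours. Each of the 4 genes thus sits on a chromosome of its own.

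The deposited values are whole-number read counts. Because the table holds only genes that the authors called, its column sums, which ran from 613161 in LATS1/2-KO library 6 to 4064052 in parental replicate 1, do not measure sequencing depth. Counts were put on a common scale from the table itself. The study kept genes that changed by more than 2-fold, so the log2 ratios of LATS1/2-KO cells to parental replicates 2 and 3 have an empty interval around 0. For the 199 genes that reached 50 counts in each of those 5 libraries this interval was 2.02 wide on the log2 scale, against 0.039 for the next widest among the central genes, and its centre was taken as no change. A value on this scale is called a scaled count. It has no unit of its own and is comparable between libraries for 1 gene, and between genes only after division by gene length.

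All 4 genes were higher in LATS1/2-KO cells, by 61.5-fold for UCA1, 12.8-fold for ANKRD1, 6.35-fold for SNAPC1 and 5.27-fold for CPA4 with all 6 libraries. For each of them the lowest LATS1/2-KO library lay above the highest parental library, by 41.4-fold for UCA1, 5.37-fold for ANKRD1, 5.28-fold for SNAPC1 and 4.003-fold for CPA4. Without parental replicate 1 this distance was 22.1-fold for ANKRD1 and 55.6-fold for UCA1, and that of SNAPC1 and CPA4 was as before. Every LATS1/2-KO library lay above every parental library for 35.5% of all genes in the table, and for 51% when parental replicate 1 was left out. The exact permutation test gave p = 0.1 (two-sided) for each gene, the smallest value that 3 libraries against 3 allow. With edgeR's quasi-likelihood test and adjustment over the table, all 4 were called higher, as were 28.5% of the 414 genes, where a call needs both a change above 2-fold and a p-value that stays under 0.05 after adjustment. Lower calls made up 41.3%. The authors chose the genes of the table on these same libraries, so a call is a description of the spread within it and is not independent evidence of the rise. The median log2 fold change was 3.17 over the 4 genes and 1.75 over the 199 genes of the table above 0. Without parental replicate 1 it was 3.68 over the 4 genes and 2.56 over the 224 genes then above 0. The study marked the 4 genes in a heatmap of its top differentially expressed genes. Their medians are thus not those of genes chosen without regard to their change.

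**Figure D1:**
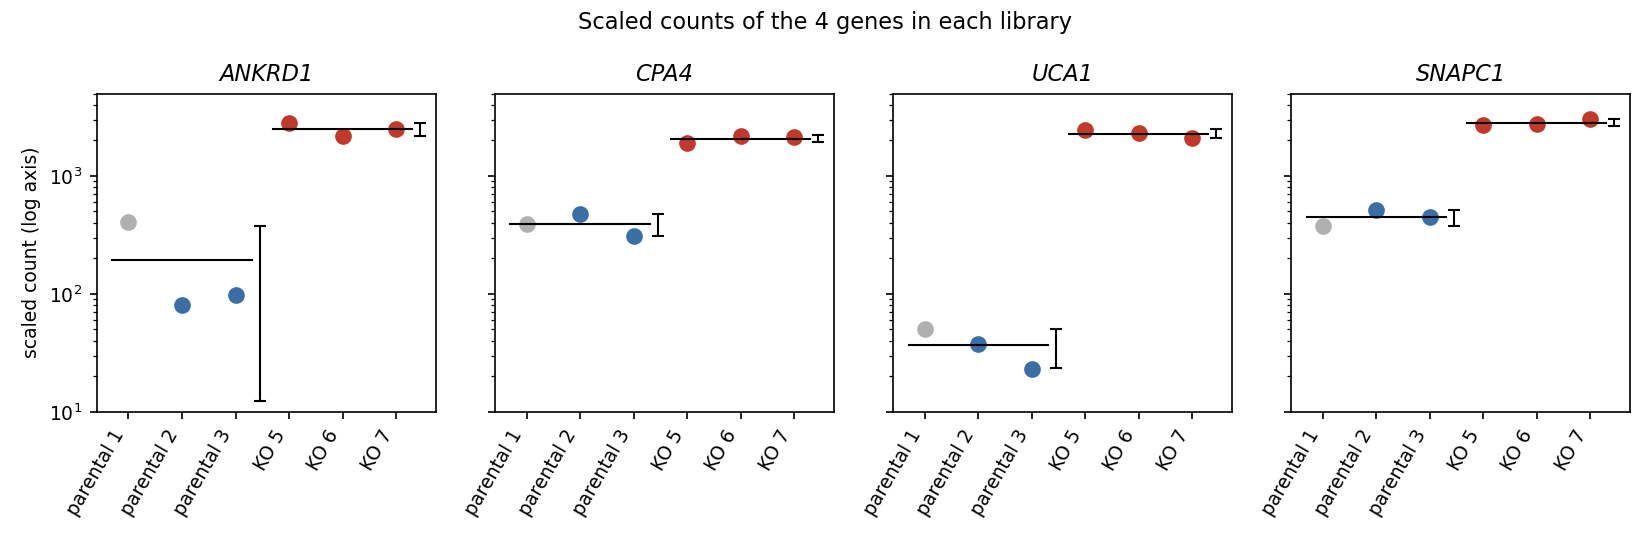
Scaled counts (log axis) of ANKRD1, CPA4, UCA1 and SNAPC1 in each of the 6 libraries, with parental replicate 1 in grey, parental replicates 2 and 3 in blue and LATS1/2-KO libraries in red. Horizontal lines are means of the 3 libraries of a group, and bars beside them are ± SD. In each panel the red points lie above every parental point, and in the ANKRD1 panel the grey point lies above the blue ones.

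UCA1 showed the largest rise. Its counts were 73, 47 and 23 in parental replicates 1, 2 and 3, and 3306, 1147 and 1731 in LATS1/2-KO libraries 5, 6 and 7. The 3 parental libraries were all low, and the 3 LATS1/2-KO libraries lay close together once scaled, at 2474, 2306 and 2080. Mean scaled counts rose from 37.0 ± 13.5 to 2287 ± 198 (SD, n = 3 libraries each), or by 5.94 on the log2 scale (standard error, SE, 0.35, edgeR adjusted p = 0.000318). Counting error is largest here, since the lowest parental count, 23, has a 95% exact Poisson interval from 14.6 to 34.5, which covers counting error only. Without parental replicate 1, which had the highest parental value, the log2 fold change was 6.21 (SE 0.24, edgeR adjusted p = 5.36e-05). UCA1 then had the smallest p-value of the 414 genes.

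ANKRD1 showed the next largest rise and the widest parental spread. Its counts were 592, 102 and 98 in parental replicates 1, 2 and 3, and 3742, 1088 and 2099 in LATS1/2-KO libraries 5, 6 and 7. Scaled, these came to 408, 81.2 and 98.9 in parental cells and to 2801, 2187 and 2522 in LATS1/2-KO cells. Parental replicate 1 thus stood 4.53-fold above the mean of the other parental libraries, yet below every LATS1/2-KO library. Of the 245 genes of the table with at least 50 counts in each parental library, 17 (ANKRD1 included) departed at least as far in replicate 1, all of them upward, and the median departure in either direction was 0.37 on the log2 scale. The log2 fold change of ANKRD1 was 3.67 (SE 0.72, edgeR adjusted p = 0.00728) with all libraries and 4.80 (SE 0.19, edgeR adjusted p = 5.36e-05) without replicate 1, that is 12.8-fold and 27.8-fold. Why replicate 1 departs was not tested.

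The deposited log2 values that accompany the counts do not show this spread. In them ANKRD1 has 9.49, 9.46 and 9.53 in parental replicates 1, 2 and 3. The value of replicate 1 equals the mean of the other parental replicates to within 1e-05, for ANKRD1 and for all 414 genes, so these columns hold no separate measurement of replicate 1. Whether the authors' selection used the counts of replicate 1 is not given. The empty 2-fold interval lies in the ratios to replicates 2 and 3, and 402 genes were called without replicate 1 against 289 with it. Results without replicate 1 thus rest on the libraries in which the selection shows. Smaller p-values or larger fold changes there are not a cleaner estimate. The counts were used for every comparison.

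SNAPC1 varied least between the libraries of a group, with a coefficient of variation of 15.3% in parental and 6.59% in LATS1/2-KO cells. Its counts were 551, 648 and 442 in parental replicates 1, 2 and 3, and 3637, 1363 and 2542 in LATS1/2-KO libraries 5, 6 and 7. Mean scaled counts rose from 447 ± 68.2 to 2839 ± 187 (SD, n = 3 libraries each). The groups were well apart, and parental replicate 1 was the lowest parental library rather than the highest. The log2 fold change was 2.67 (SE 0.16, edgeR adjusted p = 0.000318) with all libraries and 2.56 (SE 0.14, edgeR adjusted p = 0.000112) without replicate 1.

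CPA4 showed the smallest rise. Its counts were 572, 598 and 307 in parental replicates 1, 2 and 3, and 2546, 1077 and 1790 in LATS1/2-KO libraries 5, 6 and 7. Mean scaled counts rose from 393 ± 83.1 to 2074 ± 146 (SD, n = 3 libraries each). Parental replicate 1 lay between the other parental libraries, and leaving it out hardly changed the result. The log2 fold change was 2.40 both with all libraries (SE 0.20, edgeR adjusted p = 0.000583) and without replicate 1 (SE 0.21, edgeR adjusted p = 0.000299).

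A stricter adjustment treats the genes outside the table as tested and unchanged, for as many genes as the annotation has protein-coding genes (19969). Under it, 4.35% of the table was called higher and 3.38% lower with all 6 libraries, and UCA1, SNAPC1 and CPA4 were among the genes called, with edgeR adjusted p-values of 0.0154, 0.0154 and 0.0281. ANKRD1 was not (edgeR adjusted p = 0.351). Without parental replicate 1, 11.4% was called higher and 13% lower under this adjustment, and all 4 genes were called, with edgeR adjusted p-values from 0.00259 for UCA1 and ANKRD1 to 0.0144 for CPA4. Adjusted over the table, 51.4% was called higher and 45.7% lower without replicate 1. With TMM factors over the listed genes and all 6 libraries, the scale between the groups shifted by 0.67 (log2), and the log2 fold changes were 6.62 for UCA1, 4.39 for ANKRD1, 3.33 for SNAPC1 and 3.07 for CPA4. The size of each rise thus depends on the scale, and the 4 genes were higher with either. With TMM the calls of the table moved from 118 higher and 171 lower genes to 139 higher and 60 lower.

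The level of the genes before and after knockout was compared per kilobase of exon. Without parental replicate 1 the mean parental levels were 181 scaled counts per kilobase for SNAPC1, 99.3 for CPA4, 45.5 for ANKRD1 and 7.30 for UCA1 (n = 2 libraries). With all 3 parental libraries they were 168 ± 25.7, 99.3 ± 21.0, 99.0 ± 92.7 and 8.90 ± 3.26 in the same order (SD). SNAPC1 stood above CPA4 in 3 of 3 parental libraries, by 1.44-fold to 2.15-fold. CPA4 stood above ANKRD1 in 2 of 3, with replicate 1 the exception, so these neighbours do not differ beyond their spread. UCA1 was the lowest in all 3, and ANKRD1 exceeded it by 4.55-fold to 17.01-fold. With the longest transcript as length, SNAPC1 exceeded CPA4 by 1.02-fold to 1.53-fold, and ANKRD1 exceeded UCA1 by 2.95-fold to 11.01-fold.

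In LATS1/2-KO cells the order of the means differed from that in parental cells. The means were 1265 ± 155 scaled counts per kilobase for ANKRD1, 1069 ± 70.4 for SNAPC1, 551 ± 47.6 for UCA1 and 524 ± 36.9 for CPA4 (SD, n = 3 libraries). In parental replicate 1, however, ANKRD1 already stood first (206 per kilobase, against 143 for SNAPC1), with the same order as in LATS1/2-KO library 7. The move of ANKRD1 to first place thus holds only against parental replicates 2 and 3. Among the LATS1/2-KO libraries ANKRD1 exceeded SNAPC1 in 3 of 3, but by no more than 1.38-fold. SNAPC1 exceeded UCA1 by 1.72-fold to 2.296-fold. UCA1 and CPA4 changed places in library 7 and did not differ beyond their spread, whereas with the longest transcript as length UCA1 stood above CPA4 in 3 of 3 libraries, by 1.01-fold to 1.36-fold. With that length, the distance of SNAPC1 from UCA1 narrowed to between 1.11-fold and 1.49-fold, while ANKRD1 stayed first in all 3 libraries.

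The spread of the 4 genes was wider in each parental library than in any LATS1/2-KO library, and the difference rested largely on UCA1. The highest level per kilobase was 17.01, 21.6 and 30.0 times the lowest in parental replicates 1, 2 and 3. It was 2.94, 2.02 and 2.54 times the lowest in LATS1/2-KO libraries 5, 6 and 7. Among ANKRD1, CPA4 and SNAPC1 alone these ratios were 2.07, 4.73 and 3.36 in parental replicates 1, 2 and 3, against 2.94, 2.02 and 2.35 after knockout, and the groups overlapped through parental replicate 1. UCA1, the gene with the lowest parental level, had the largest fold change, but ANKRD1 gained the most scaled counts per kilobase, 1166 with all libraries, against 901 for SNAPC1, 542 for UCA1 and 425 for CPA4. With the longest transcript as gene length, the highest level was 11.01, 13.9 and 19.4 times the lowest in the parental replicates and 2.09, 1.44 and 1.67 times in the LATS1/2-KO libraries, and the gains of UCA1 and CPA4 came to 837 and 597. A fold change is divided by the parental level, so the order of folds and the order of parental levels are not independent quantities.

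**Figure D2:**
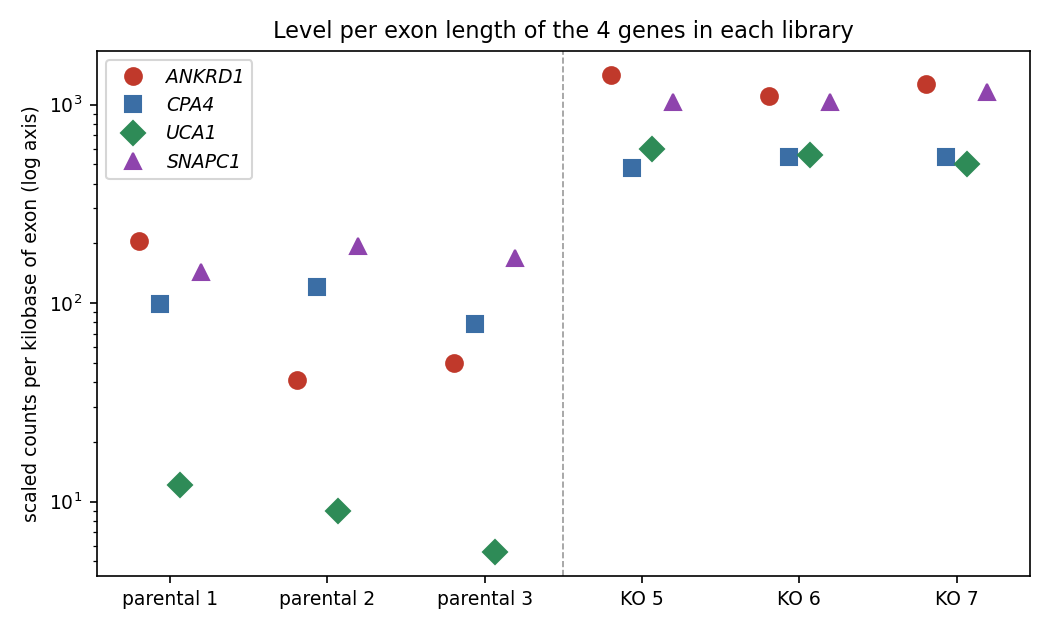
Scaled counts per kilobase of exon (log axis) of the 4 genes in the 3 parental libraries (left of the dashed line) and the 3 LATS1/2-KO libraries (right), 1 symbol per gene and library. UCA1 is lowest in every parental library, and the 4 genes lie within 2.94-fold of each other in every LATS1/2-KO library.

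To compare the induction of the genes without any library scale or gene length, the ratio of the counts of each pair of genes was taken within each library. The smallest p that the exact permutation test (two-sided) allows is 0.1, and values were adjusted by Benjamini-Hochberg over the 6 pairs. The count ratio of UCA1 to SNAPC1 was 0.132, 0.0725 and 0.0520 in parental replicates 1, 2 and 3, and 0.909, 0.842 and 0.681 in LATS1/2-KO libraries 5, 6 and 7. The groups did not overlap, and the log2 ratio rose by 3.34 (SE 0.41; exact p = 0.1, adjusted 0.2). Reads of UCA1 were thus few beside those of SNAPC1 in every parental library and of the same order in every LATS1/2-KO library. The ratio of CPA4 to UCA1 fell in the same manner, from between 7.84 and 13.3 in parental libraries to between 0.770 and 1.03 in LATS1/2-KO libraries.

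For CPA4 and SNAPC1 the groups could not be told apart by their ratio. It was 1.04, 0.923 and 0.695 in parental replicates 1, 2 and 3, and 0.700, 0.790 and 0.704 in LATS1/2-KO libraries 5, 6 and 7. The values overlapped, and the log2 ratio differed by -0.26 (SE 0.18; exact permutation p = 0.4, adjusted 0.4), so a difference was not detectable with these libraries, which does not show that the ratio stayed the same. The ratio of ANKRD1 to CPA4 was 1.03, 0.171 and 0.319 in parental replicates 1, 2 and 3, against 1.47, 1.01 and 1.17 after knockout, and overlapped through parental replicate 1 alone. Its log2 ratio rose by 1.65 (SE 0.78; exact permutation p = 0.2, adjusted 0.3) with all libraries and by 2.37 (SE 0.48; exact permutation p = 0.1, adjusted 0.12) without that replicate. In both cases UCA1 rose more than ANKRD1, since the log2 ratio of ANKRD1 to UCA1 fell by 1.95 and by 1.48 with no overlap of the groups (exact permutation p = 0.1 each, adjusted 0.2 and 0.12).

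**Figure D3:**
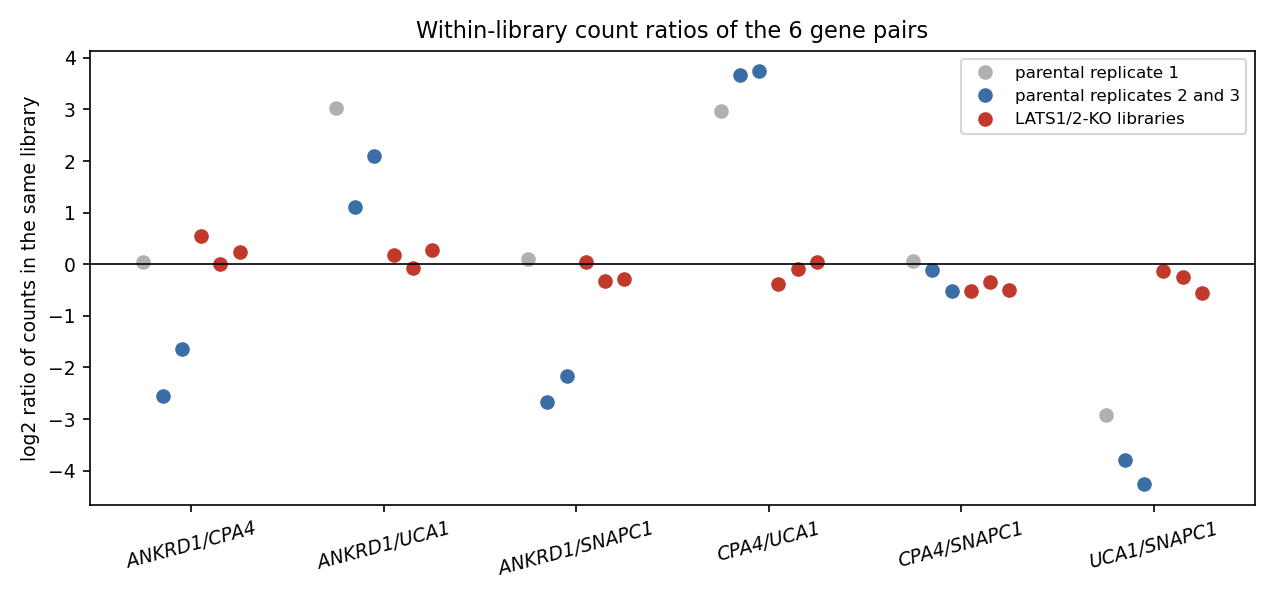
Log2 ratio of the counts of 2 genes in the same library for the 6 pairs, 1 point per library, with parental replicate 1 in grey, parental replicates 2 and 3 in blue and LATS1/2-KO libraries in red. Ratios with UCA1 separate the groups fully, the ratio of CPA4 to SNAPC1 does not, and the ratios of ANKRD1 to CPA4 and to SNAPC1 separate them only when the grey point is left out.

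Most other listed genes of the YAP program had smaller log2 fold changes than the 4 genes, a difference that was not tested. The study marked the 4 in a heatmap of its top differentially expressed genes, so they were picked with their change in view. A widely used signature of 22 YAP/TAZ targets, of which ANKRD1 is one, had 9 genes in the table, and the other 13 were not analysed here. With all 6 libraries and adjustment over the table, 8 of the 9 were called higher, 0 lower and 1, GADD45A, was not called (28.5% of the table was called higher). Without parental replicate 1 all 9 were called higher, against 51.4% of the table. In that fit 402 of the 414 genes were called in either direction, so a call there was close to fixed in advance. Under the stricter adjustment above, only CCN1 of the 9 was called with all 6 libraries (4.35% of the table was called higher). CCN1, ANKRD1 and CRIM1 alone were called under it without parental replicate 1 (11.4% of the table). The median log2 fold change of the 9 genes was 1.35 with all libraries and 1.55 without that replicate, against -0.37 and 1.17 over all 414 genes. All 9 had fitted changes above 0, as had 199 of the 414 genes with all libraries and 224 without that replicate. Over these genes above 0 the median was higher, at 1.75 and 2.56. Since the table was selected on these libraries, the count says only that the listed members share a direction.

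Within this signature CCN1, a secreted matricellular protein and a classic YAP target, had 585, 603 and 439 counts in parental replicates and 2227, 873 and 1432 in LATS1/2-KO libraries. Its groups did not overlap after scaling, and its log2 fold change was 1.96 (SE 0.12, edgeR adjusted p = 0.000356). AXL, a receptor tyrosine kinase, had 35196, 35222 and 23637 counts in parental replicates and 69093, 24980 and 49702 in LATS1/2-KO libraries, and rose by 1.09 on the log2 scale (SE 0.13). F3, tissue factor of blood coagulation, rose by 1.24 (SE 0.14). AMOTL2, an angiomotin-family protein that itself binds YAP, rose by 1.39 (SE 0.27). CRIM1 and ASAP1, a membrane protein that binds growth factors and a regulator of Arf GTPases, rose by 1.35 and 1.19.

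TGFB2, a ligand of the TGF-beta receptor, had a log2 fold change of 4.49 with an SE of 1.34, on counts of 11, 0 and 9 in parental replicates and 132, 38 and 170 in LATS1/2-KO libraries, so its size is poorly fixed. GADD45A, a stress-response gene, had 1282, 330 and 143 counts in parental replicates and 483, 196 and 485 after knockout. The log2 fold change of GADD45A was 0.053 (SE 0.69, edgeR adjusted p = 0.953) with all libraries and 1.13 (SE 0.35, edgeR adjusted p = 0.0184) without parental replicate 1. GADD45A and ANKRD1 thus shared a high value in that replicate.

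In its heatmap of the top differentially expressed genes of these same libraries, the study marked 8 genes as YAP/TEAD targets. They are the 4 described here with BMP4, DKK1, THBS1 and GLUL. With all 6 libraries 7 of the 8 were called higher (28.5% of the table), and all 8 without parental replicate 1 (51.4%). Genes entered that heatmap by their change in these libraries, so these counts do not measure an enrichment. BMP4, a bone morphogenetic protein ligand, DKK1, a secreted inhibitor of Wnt signaling, and THBS1, a matrix glycoprotein, rose by 2.86, 2.41 and 1.75 on the log2 scale (SEs 0.26, 0.18 and 0.12). For comparison, SNAPC1 and CPA4 rose by 2.67 and 2.40 in the same fit, and the differences between these genes were not tested. GLUL, glutamine synthetase, had 37245 counts in parental replicate 1 against 487 and 431 in its partners, and a log2 fold change of -2.89 (SE 1.70, edgeR adjusted p = 0.175) with all libraries and 1.54 (SE 0.12) without replicate 1.

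**Figure D4:**
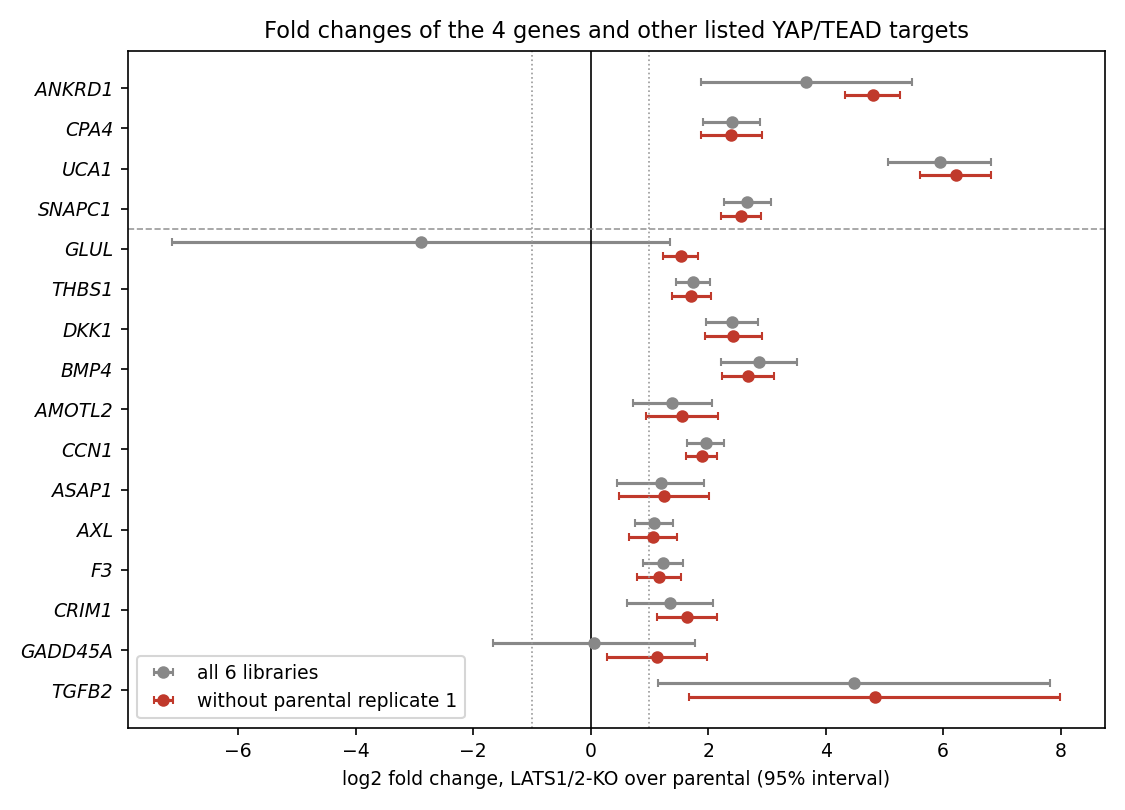
Log2 fold changes (LATS1/2-KO over parental) with 95% intervals from edgeR, with all 6 libraries (grey) and without parental replicate 1 (red), for the 4 genes (above the dashed line), the other heatmap targets and the listed genes of the YAP/TAZ signature. Dotted lines mark a 2-fold change. The intervals of ANKRD1, GLUL and GADD45A narrow most when replicate 1 is left out, while CPA4 and SNAPC1 stay in place.

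Of 24 components of the Hippo pathway, 4 were in the table and the other 20 were not analysed here, which holds for YAP1, the TEAD genes and both knocked-out kinases. AMOTL2 and AJUBA, a LIM-domain protein that restrains LATS kinases, were called higher with all 6 libraries, 2 of the 4 against 28.5% of the table. FRMD6, a FERM-domain protein upstream of the kinases, and AMOTL1 had log2 fold changes of 1.12 (SE 0.50) and 1.09 (SE 0.49) that were not called, and were called without parental replicate 1, at 1.73 and 1.68, which makes 4 of 4 against 51.4% of the table. Under the stricter adjustment above, no component was called with either set of libraries (4.35% and 11.4% of the table were called higher).

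Few relatives of the 3 protein-coding genes were in the table. Of the 19 metallocarboxypeptidase genes looked for, CPA4 and CPM were present, and they went opposite ways. CPM, a membrane-bound carboxypeptidase, had 1211, 199 and 119 counts in parental replicates and 23, 7 and 22 after knockout, with log2 fold changes of -4.25 (SE 0.94, edgeR adjusted p = 0.00985) with all libraries and -2.84 (SE 0.42) without replicate 1. SNAPC1 was the 1 listed subunit of 5 of its complex, and ANKRD1 the 1 listed of 3 muscle ankyrin repeat genes.

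The genes with the most similar profiles were found by the root mean square difference, over the 6 libraries, of log2(scaled count + 1) after subtracting the mean of parental replicates 2 and 3, among 358 other genes with at least 50 counts in some library. All genes share the libraries. For genes with parental counts at or near 0, the added 1 sets the size of the change, and with it the distance. SNAPC1 was closest to an unnamed gene, ENSG00000286134.2_4, at a distance of 0.11, with 398, 428 and 326 counts in parental replicates and 2675, 874 and 1543 in LATS1/2-KO libraries. Next were HOMER1, a scaffold protein of synapses, at 0.20, and DKK1 at 0.21. CPA4 was closest to HOMER1 at 0.14, DKK1 at 0.17 and SNAPC1 at 0.22, so CPA4 and SNAPC1 are among each other's 4 nearest genes.

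ANKRD1 and UCA1 had no such close match. The nearest genes to ANKRD1 were IL2RG, the common gamma chain of interleukin receptors, at 0.68, then SCG5, a secretory granule protein, at 0.91, and TGFB2 at 1.06. IL2RG has few reads, and its distance rests on the added 1 too, with 19, 0 and 2 counts in parental replicates and 91, 36 and 25 in LATS1/2-KO libraries. The nearest genes to UCA1 were VSTM1, MUC13 and the unnamed ENSG00000285671.1_3, at 0.38, 0.52 and 0.58. These are genes at or near 0 in parental cells, so their distances rest on the added 1, and their nearness to UCA1 is not a likeness in fold change. VSTM1, an immunoglobulin-domain receptor, had 0 counts in each parental replicate and 95, 33 and 65 in LATS1/2-KO libraries, and MUC13, a membrane mucin, had 3, 0 and 0 against 147, 37 and 90. The distance between UCA1 and ANKRD1 themselves was 1.21, and ANKRD1 was the 8th nearest gene to UCA1.

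Few genes of the table lay near the 4 on the genome. Within 2 Mb of the start of CPA4 and of UCA1 there were 0. Near ANKRD1 there were 5, all between 1507 and 1638 kb away. They were the interferon-induced genes IFIT1, IFIT2 and IFIT3, which block translation of viral RNA, the lysosomal lipase LIPA, and the antisense gene ENSG00000232110.8_8. ENSG00000232110.8_8 had 172, 378 and 268 counts in parental replicates and 4427, 884 and 2200 after knockout, a rise of 3.49 on the log2 scale (SE 0.46) with all libraries and of 3.17 (SE 0.30) without replicate 1. IFIT1, IFIT2 and IFIT3 rose by 1.74, 1.98 and 1.79 on the log2 scale (SEs 0.20, 0.10 and 0.11) over the 6 libraries. LIPA had 2061 counts in parental replicate 1 but 245 and 187 in its partners, and its log2 fold change was -0.26 (SE 0.86) with all libraries and 1.38 (SE 0.24) without replicate 1. Near SNAPC1 there was PRKCH, a protein kinase C gene 575 kb away, with 0, 7 and 9 counts in parental replicates and 48, 27 and 58 in LATS1/2-KO libraries. Its log2 fold change of 3.43 (SE 1.37, edgeR adjusted p = 0.0653) was not called with all libraries, and it was called without parental replicate 1, at 2.85 (SE 0.61, edgeR adjusted p = 0.00529).

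Of the epithelial markers that would define these cells, 1 of 7 was in the table. KRT19, a keratin of simple epithelia, had 30967, 32635 and 26496 counts in parental replicates and 16722, 5505 and 9287 in LATS1/2-KO libraries, a drop, as log2 fold change, to -1.09 (SE 0.13). Of the stromal, immune and endothelial markers looked for (6, 5 and 4 genes), 0 were in the table, so the share of other cells could not be read from it. Fewer cells that express a gene and less RNA of it per cell cannot be told apart in such bulk libraries.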

How the data were processed

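Total RNA of KLE cells, 3 parental and 3 LATS1/2-KO samples, was converted to oligo-dT primed libraries and sequenced as paired-end reads. Per the labels, the submitters' processing notes name cutadapt, HISAT2, StringTie, DESeq2 and the build hg19. The authors deposited 1 table of the 414 genes they called, with raw read counts per gene and library. They also deposited a log2 value per gene and library that the header calls TPM. It was read for the parental replicates only, and 3 columns of per-sample values were not used. The table's fold changes and p-values hold the authors' own comparison and were not used.

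Positions and gene lengths are from GENCODE version 29 (GRCh38), which held 410 of 414 identifiers without version, and promoters from RefSeq. No coordinates were converted.

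Library scales were median ratios within groups, with parental replicate 1 scaled to replicates 2 and 3, and the centre of the empty interval between groups. The scale and the fit were tested on simulated data. Counts of all 414 genes entered 1 quasi-likelihood fit per set of libraries (edgeR 4.0.16, R 4.3.3, no covariates), with Benjamini-Hochberg adjustment. A standard error is the absolute log2 fold change over the square root of F. DESeq2 1.42.0, TMM, median-of-ratios factors, a count filter and leaving out each library were alternatives.

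The 4 genes and all gene lists were chosen with earlier results of these data known. Named genes are the 4, genes of the fixed lists, the 3 most similar profiles per gene and listed genes within 2 Mb.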

Additional observations from a re-analysis of the deposited data

How the results depend on the processing

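UCA1, ANKRD1, SNAPC1 and CPA4 kept their direction under every alternative run. Their calls were kept too, except that ANKRD1, at a log2 fold change of 3.67 with all 6 libraries, was not called when adjusted for all protein-coding genes (adjusted p = 0.351 from edgeR). That adjustment, which counts more genes as tested, left 32 calls with all 6 libraries and 101 without parental replicate 1, against 289 and 402 over the table. As each library was left out in turn, the log2 fold change of ANKRD1 ranged from 3.30 to 4.80, that of UCA1 from 5.70 to 6.21, that of SNAPC1 from 2.56 to 2.78 and that of CPA4 from 2.25 to 2.56, the highest adjusted p-value being 0.0243 for ANKRD1 (edgeR). The high end for ANKRD1 came from leaving out parental replicate 1. DESeq2 called 127 genes higher and 170 lower with all 6 libraries. Median-of-ratios factors shifted the scale between the groups by 0.52 (log2). They gave log2 fold changes of 6.48 for UCA1, 4.29 for ANKRD1, 3.17 for SNAPC1 and 2.91 for CPA4, with 141 higher and 90 lower genes. With the longest transcript as length, the parental level per kilobase moved to 140 for CPA4 and 13.8 for UCA1. Alternatives for the fits without parental replicate 1 were added after seeing the data, and TMM there gave 213 higher and 98 lower genes, median-of-ratios factors 214 and 75, against 213 and 189. No paired analysis was possible because the LATS1/2-KO columns carry numbers that match no replicate label. UCA1 is limited by counting error in parental cells, and the missing library totals limit the size of every fold change.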
